A study of Rattus with 6 samples.

Results

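Messenger RNA of the p53 network and of the BCL2-family death regulators was examined in aspirin-treated RC-4B/C cells, a cell line from a rat pituitary adenoma. The members were taken by symbol from a list of 41 genes, and their listed exons were summed by gene identifier. Rows carried 36 of the 41 symbols, among 12801 genes in all. The other 5 symbols, Mcl1, Bbc3, Pmaip1 and Fas among them, carried no row and were not analysed here. The comparison was between 3 libraries labelled ASA (acetylsalicylic acid, aspirin) and 3 libraries labelled DMSO, the solvent control, all from the same line with no genetic alteration named. The labels used here give no dose, duration or cell age and leave unstated whether cultures were separate. The p-values therefore measure only the spread between these libraries, which may be technical. Levels are in RPKM, the reads of a gene per 1000000 reads and per kilobase of its listed exons. In these bulk libraries fewer cells of a type and less RNA per cell cannot be told apart.

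The transcription factor p53 is held low by the MDM2 ubiquitin ligase and its partner MDM4, and when it is released by damage or stress it induces genes of growth arrest, DNA repair and cell death. Death through mitochondria is set by the BCL2 family: BH3-only proteins sense stress and neutralise survival proteins such as BCL2 and BCL-XL, and the multidomain effectors BAX, BAK and BOK permeabilise the outer membrane. Released cytochrome c then assembles APAF1 and caspase-9 into the apoptosome, while inhibitor of apoptosis proteins restrain the caspases and DIABLO restrains those inhibitors. Many of these genes also answer to signals other than p53, so their messenger RNA is no direct reading of p53 activity.

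Depth in the listed exons was 66492444 to 92073422 reads in the ASA libraries and 82189701 to 94486063 reads in the DMSO libraries. ASA replicate 2 was the shallowest library and stood apart from the others. The scatter between exons of a gene (log2) was 0.42 there, and 0.11 to 0.13 in the other 5 libraries. The mitochondrial share was 5.44%, and 2.65% to 3.22% elsewhere. Among the genes studied here it lay outside the interval between ASA replicates 1 and 3 in 33 of 36, highest in 11 and lowest in 22. The same held for 85.9% of all 12502 genes tested, highest in 3351 and lowest in 7383. The trimmed-mean (TMM) scaling factor of ASA replicate 2 was 0.84, against 1.07 and 1.06 in ASA replicates 1 and 3. The RPKM given here are not scaled by these factors. Without ASA replicate 2, 7 of the 36 genes had a fold change of the other sign, none of them past the threshold in either fit. These were Plk2 (log2 0.13), Btg2 (-0.18), Tigar (0.11), Bcl2l11 (-0.03), Bid (0.35), Xiap (0.00) and Birc3 (0.54). How many of all genes changed sign was not counted. The median standard deviation of the 36 genes on the log2 scale was 0.55 in the ASA group and 0.14 in the DMSO group.

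Aspirin-treated cells had more transcript of several p53-responsive genes and of a pair of BCL2-family genes with opposite known roles, the effector Bok and the survival gene Bcl2l1. In limma's test on log2(RPKM + 0.1) over all 12502 genes, with a Benjamini-Hochberg adjusted p under 0.05 as the threshold, Gadd45a, Plk3, Phlda3, Aen, Bok and Bcl2l1 rose. These are 6 of 36 genes (16.7%), where 6.21% of all genes tested were called higher. The list was chosen with earlier results of these data known, so the difference between these shares is no independent result. None of the 36 was called lower, where 4.99% of all genes were (11.2% in either direction). An unadjusted p under 0.05 in the same limma test was found in 14 of the 36, 12 higher and 2 lower (Apaf1 and Diablo). In either direction, 3753 of all 12502 genes had such an unadjusted p. The median log2 fold change was 0.22 over the 36 genes and -0.06 over all genes tested. All 3 ASA libraries lay above all 3 DMSO libraries in 12 of the 36 (33.3%, against 19.9% of all genes), and below them in 3 (8.33%, against 18.8% of all genes). ASA replicates 1 and 3 alone lay above all DMSO libraries in 16 of the 36 (33% of all genes) and below them in 5 (22.2% of all genes). All 36 had a mean RPKM of at least 0.5 and were tested.

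**Figure D1:**
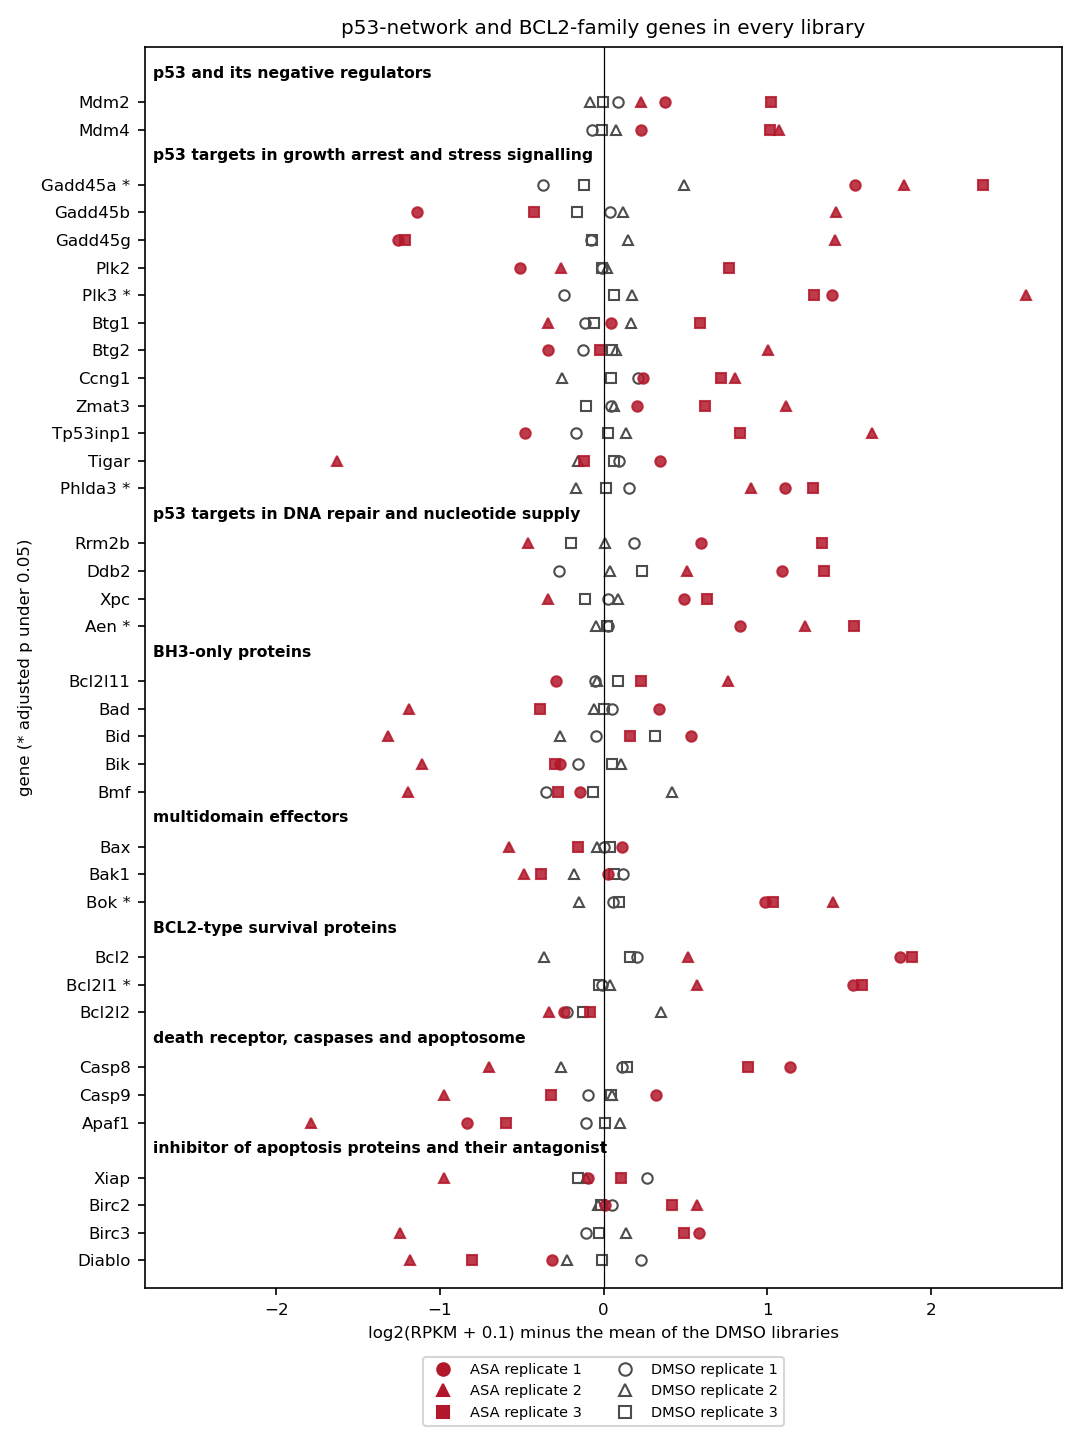
Value of each of the 36 genes in each library, as log2(RPKM + 0.1) minus the mean of the 3 DMSO libraries, grouped by role. Filled red symbols are ASA libraries, open grey symbols are DMSO libraries, and an asterisk marks an adjusted p under 0.05. The ASA libraries are spread more widely than the DMSO libraries, and ASA replicate 2 (triangles) is highest in 11 genes and lowest in 22 within its group.

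Which calls were made depended on the libraries in the fit. Left out in turn, ASA replicate 3, DMSO replicate 1 and DMSO replicate 3 each left 0 of the 36 genes past the limma threshold. At an unadjusted p under 0.05 there were then 8, 9 and 10 of the 36, where 23.4%, 20.6% and 18.8% of all genes were under it. By the adjusted p, the called share of all genes in those 3 fits was 0%, 0.728% and 0%. Without DMSO replicate 2, Bok, Gadd45a and Phlda3 kept their calls (3 higher against 2.5% of all genes, 0 lower against 2.55%). Without ASA replicate 1, Bcl2l1 lost its call while Mdm4, Tp53inp1 and Zmat3 were called higher and Diablo lower (8 higher against 7.85% of all genes, 1 lower against 8.27%). Without ASA replicate 2 there were 10 higher, against 12.9% of all genes, and 2 lower, against 8.07%. That fit kept all 6 calls and added Bcl2, Casp8, Ddb2 and Rrm2b as higher and Apaf1 and Gadd45g as lower. The direction of the fold change was the same in all 6 of these fits for 26 of the 36 genes, 17 positive and 9 negative. These fits share most of their libraries, and the same share over all genes was not counted.

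Both negative regulators of p53 had higher values in the ASA libraries without passing the threshold. Mdm2, the ubiquitin ligase that p53 itself induces, had 181, 163 and 283 RPKM in ASA replicates 1, 2 and 3, against 148, 132 and 139 RPKM in DMSO replicates 1, 2 and 3. The groups did not overlap, but ASA replicate 3 was well above the other ASA libraries. The log2 fold change of Mdm2 was 0.54 ± 0.23 SE (adjusted p = 0.165), and 0.70 without ASA replicate 2 (adjusted p = 0.0538). Mdm4, the partner that binds and inhibits p53, averaged 62.0 ± 18.2 RPKM in ASA and 35.1 ± 1.79 RPKM in DMSO libraries (SD, n = 3 each). Its log2 fold change of 0.77 ± 0.25 missed the threshold (adjusted p = 0.0881). All 10 listed exons of each gene were higher on average in ASA, and 6 of Mdm2 and 7 of Mdm4 separated the groups. In ASA replicate 2 the exons ran from -0.09 to 0.78 log2 units from the DMSO mean in Mdm2. In Mdm4 they ran from -0.47 to 2.09 there.

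Among the 12 p53 targets of growth arrest and stress signalling, 3 rose and none fell, where 6.21% of all genes were called higher and 4.99% lower. The stress sensor Gadd45a, which binds PCNA and cell cycle kinases, was the strongest. Gadd45a had 464, 571 and 798 RPKM in ASA replicates 1, 2 and 3, against 124, 225 and 148 RPKM in DMSO replicates 1, 2 and 3. Every ASA library exceeded every DMSO library at least 2-fold, and DMSO replicate 2 was the highest control. It was 3.72-fold higher (log2 fold change 1.89 ± 0.29, adjusted p = 0.0156), and all 4 of its exons separated the groups. Its count is uncertain in that 33.3% of its exon values were not whole reads. No listed exon of another gene overlapped an exon of any of the 36.

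The other Gadd45 genes did not share this pattern. Gadd45g had 138, 879 and 142 RPKM in ASA replicates 1, 2 and 3, against 312, 365 and 314 RPKM in DMSO replicates 1, 2 and 3. ASA replicates 1 and 3 lay under all DMSO libraries and ASA replicate 2 lay above them. With all libraries its log2 fold change was -0.35 ± 0.66 (adjusted p = 0.745), and without ASA replicate 2 it was -1.23, 2.35-fold lower (adjusted p = 0.00715). Gadd45b had 18.8 to 111 RPKM in the ASA libraries, with ASA replicate 2 the highest, against 37.1 to 45.2 RPKM in the DMSO libraries, the same arrangement at a lower level. Its log2 fold change was -0.05, and -0.78 without ASA replicate 2 (adjusted p = 0.0573). This pair was chosen for the text after its values were seen.

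The polo-like kinase gene Plk3 rose, whereas its relative Plk2, a p53 target as well, had no change past the threshold. Plk3 had 117, 267 and 108 RPKM in ASA replicates 1, 2 and 3, against 37.7, 50.2 and 46.5 RPKM in DMSO replicates 1, 2 and 3. The groups were well apart, with ASA replicate 2 more than 2-fold above the other ASA libraries. The increase was 3.37-fold (log2 1.75 ± 0.35, adjusted p = 0.0275), and 2.53-fold without ASA replicate 2 (adjusted p = 0.00822). All 15 listed exons separated the groups, though 26.7% of their values were not whole reads. Plk2 had a log2 fold change of -0.00 ± 0.33 (adjusted p = 0.997), with 21.8 to 52.8 RPKM in the ASA libraries around 30.8 to 31.5 RPKM in the DMSO libraries.

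Phlda3, whose product blocks AKT at the membrane, rose with little scatter. Phlda3 had 104, 90.3 and 117 RPKM in ASA replicates 1, 2 and 3, against 53.8, 43.1 and 48.8 RPKM in DMSO replicates 1, 2 and 3. The lowest ASA library was well above the highest DMSO library, and the increase was 2.14-fold (log2 1.09 ± 0.18, adjusted p = 0.0192). Only 1 exon of Phlda3 is listed. Leaving out each library in turn gave an adjusted p of 0.00889 to 0.114.

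The other 6 genes of this group did not pass. Ccng1, encoding cyclin G1, and Zmat3, a p53-induced RNA-binding protein, had all ASA libraries above all DMSO libraries, with log2 fold changes of 0.59 ± 0.22 (adjusted p = 0.122) and 0.65 ± 0.25 (adjusted p = 0.132). Tp53inp1, a stress-induced partner of p53, had 103, 447 and 255 RPKM in ASA replicates 1, 2 and 3, against 128, 158 and 146 RPKM in DMSO replicates 1, 2 and 3. Its ASA libraries lay on both sides of the controls, and it was chosen for the text after its values were seen. Tp53inp1 had a log2 fold change of 0.66 with all libraries, 1.24 without ASA replicate 1 (adjusted p = 0.0329) and 0.18 without ASA replicate 2, where it did not pass. The antiproliferative genes Btg1 and Btg2 had log2 fold changes of 0.10 and 0.21, and Tigar, a phosphatase that lowers glycolytic flux, had -0.47, all with groups that overlapped.

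**Figure D2:**
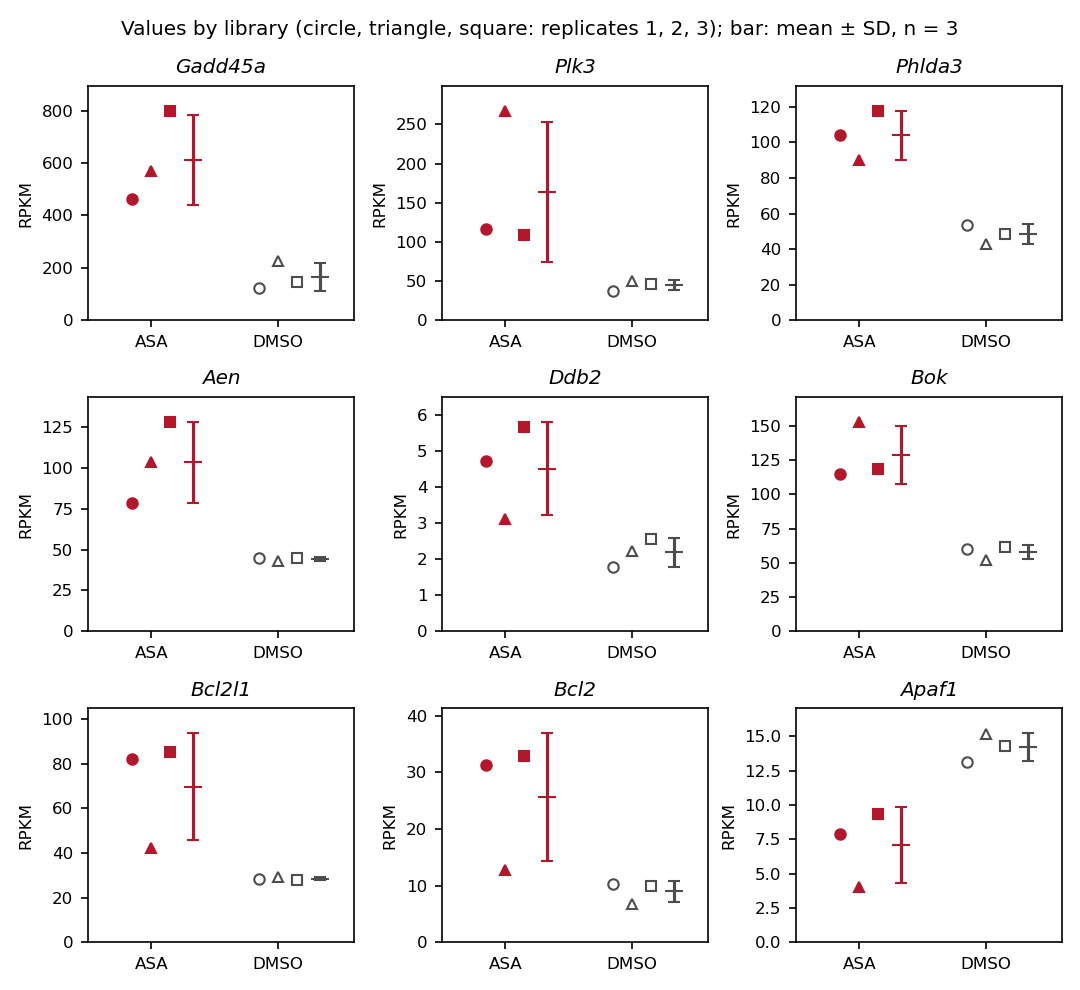
RPKM by library for the 6 genes called higher and for Ddb2, Bcl2 and Apaf1, which did not pass but had a log2 fold change of at least 0.8 in size. Filled symbols are ASA and open symbols DMSO libraries, with the mean ± SD (n = 3) beside them on an axis from 0. The groups do not overlap in any of the 9 genes, and in Bcl2l1 and Bcl2 ASA replicate 2 (triangle) is the ASA library nearest to the controls.

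The 4 p53 targets grouped here under DNA repair and nucleotide supply all had positive fold changes, as had 5811 of all 12502 genes tested. The 1 that rose was Aen (6.21% of all genes were called higher), and Ddb2, Rrm2b and Xpc did not pass with all libraries. Aen, an apoptosis-enhancing nuclease, had 78.6, 104 and 128 RPKM in ASA replicates 1, 2 and 3, against 44.9, 42.8 and 44.7 RPKM in DMSO replicates 1, 2 and 3. The controls were nearly equal and every ASA library was above them. Aen was 2.29-fold higher (log2 1.20 ± 0.21, adjusted p = 0.0209), with all 3 exons separating the groups.

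Ddb2, the damage-recognition subunit of the UV repair ligase, was among the weakest transcripts of the set. Ddb2 had 4.73, 3.12 and 5.67 RPKM in ASA replicates 1, 2 and 3, against 1.78, 2.22 and 2.56 RPKM in DMSO replicates 1, 2 and 3. The groups did not overlap, and ASA replicate 2 was the lowest of its group. With all libraries Ddb2 had a log2 fold change of 0.98 ± 0.34 (adjusted p = 0.102), and 1.22 without ASA replicate 2 (adjusted p = 0.0252). Rrm2b, the p53-inducible ribonucleotide reductase subunit, had 18.4, 8.81 and 30.8 RPKM in ASA replicates 1, 2 and 3, against 13.9, 12.3 and 10.6 RPKM in DMSO replicates 1, 2 and 3. In it ASA replicate 2 fell under all controls while the other ASA libraries lay above them. Rrm2b, named for that after its values were seen, had a log2 fold change of 0.49 ± 0.43 (adjusted p = 0.475), and 0.96 without that library (adjusted p = 0.0424). Xpc, another damage sensor, had 0.26 with all libraries and 0.56 without ASA replicate 2 (adjusted p = 0.587 with all libraries).

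None of the 5 BH3-only genes passed the threshold, where 11.2% of all genes did. Of the 5, 4 had a negative fold change, as had 6691 of all 12502 genes tested. Bik, the most abundant of them, had 54.9, 30.5 and 53.8 RPKM in ASA replicates 1, 2 and 3, against 59.1, 71.0 and 68.5 RPKM in DMSO replicates 1, 2 and 3. All ASA libraries were under all DMSO libraries, with ASA replicate 2 far under the others. Its log2 fold change was -0.56 ± 0.26 (adjusted p = 0.195), and -0.28 without ASA replicate 2 (adjusted p = 0.188). Bad, Bid and Bmf had log2 fold changes of -0.41, -0.21 and -0.54, and in each ASA replicate 2 was the lowest library of the 6. Without it those of Bad, Bid and Bmf were -0.02, 0.35 and -0.21. Bcl2l11, which encodes BIM, had 23.6 to 48.9 RPKM in ASA libraries and 27.8 to 30.7 RPKM in DMSO libraries, a log2 fold change of 0.23 ± 0.28 (adjusted p = 0.596).

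The 3 multidomain effectors diverged. Bok, the effector that is governed by degradation and does not depend on BAX and BAK, rose. Bok had 114, 153 and 118 RPKM in ASA replicates 1, 2 and 3, against 60.0, 52.0 and 61.4 RPKM in DMSO replicates 1, 2 and 3. Both groups were tight and the lowest ASA library was well above the highest control. The increase was 2.21-fold (log2 1.14 ± 0.19, adjusted p = 0.0179), 2.02-fold to 2.33-fold when each library was left out in turn, with an adjusted p of 0.00927 to 0.105. All 4 exons of Bok separated the groups. Bax averaged 20.7 ± 4.85 RPKM in ASA and 23.5 ± 0.662 RPKM in DMSO libraries, and Bak1 83.1 ± 16.3 RPKM in ASA and 100.2 ± 10.7 RPKM in DMSO libraries (SD, n = 3 each). Their log2 fold changes were -0.21 ± 0.23 and -0.28 ± 0.20 (adjusted p = 0.578 and 0.372), and both had overlapping groups. The median log2 fold change of this group was -0.21, since the other two members outnumber Bok.

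Of the 3 BCL2-type survival genes, Bcl2l1 rose and Bcl2 had a larger fold change that missed the threshold. Bcl2l1, which encodes BCL-XL, had 82.0, 42.3 and 85.1 RPKM in ASA replicates 1, 2 and 3, against 28.2, 29.3 and 27.9 RPKM in DMSO replicates 1, 2 and 3. The controls were nearly equal, ASA replicates 1 and 3 were close to each other, and ASA replicate 2 lay between. The increase was 2.33-fold (log2 1.22 ± 0.29, adjusted p = 0.0385), and 2.93-fold without ASA replicate 2 (adjusted p = 0.006). Leaving out any 1 of the other 5 libraries ended the call (adjusted p = 0.061 to 0.162), as did a fit without a trend in the variance (adjusted p = 0.0538).

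The value of Bcl2l1 in ASA replicate 2 came from 2 exons that disagreed. Its first listed exon was 0.18 log2 units under the DMSO mean in that library, and 1.51 and 1.56 above it in ASA replicates 1 and 3. Its second listed exon was 2.23 above the DMSO mean in ASA replicate 2, and 1.63 and 1.69 above it in ASA replicates 1 and 3. Bcl2 itself had 31.4, 12.7 and 32.9 RPKM in ASA replicates 1, 2 and 3, against 10.2, 6.86 and 9.92 RPKM in DMSO replicates 1, 2 and 3. The arrangement was the same, with ASA replicate 2 just above the highest control. The log2 fold change of Bcl2 was 1.40 ± 0.40 (adjusted p = 0.0616). It was 3.60-fold higher without ASA replicate 2 (adjusted p = 0.00816), and it also passed with trimmed-mean (TMM) or median-ratio scaling (adjusted p = 0.0332 and 0.033). Bcl2l2, encoding BCL-w, averaged 36.8 ± 3.25 RPKM in ASA and 43.4 ± 9.63 RPKM in DMSO libraries, with overlapping groups (log2 fold change -0.22 ± 0.21, adjusted p = 0.509).

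Among the caspases and the apoptosome, Apaf1 had the lowest fold change of all 36 genes. Apaf1, the scaffold that activates caspase-9, had 7.92, 4.05 and 9.37 RPKM in ASA replicates 1, 2 and 3, against 13.2, 15.2 and 14.3 RPKM in DMSO replicates 1, 2 and 3. Every ASA library was under every control, with ASA replicate 2 the lowest. Its log2 fold change was -1.07 ± 0.34 (adjusted p = 0.0822), and -0.71, 1.64-fold lower, without ASA replicate 2 (adjusted p = 0.0371). It passed with median-ratio scaling too (adjusted p = 0.0499). All 26 listed exons were lower on average and 25 of them separated the groups.

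Casp8, the initiator caspase of death receptors, had 9.29 to 33.5 RPKM in the ASA libraries, against 16.4, 12.6 and 16.8 RPKM in DMSO replicates 1, 2 and 3. ASA replicates 1 and 3 were above all controls and ASA replicate 2 was under them. Its log2 fold change was 0.44 ± 0.47 (adjusted p = 0.551), and 1.01 without ASA replicate 2 (adjusted p = 0.0188). Casp9 had -0.33 ± 0.34 (adjusted p = 0.537), and -0.00 without that library. Diablo, the mitochondrial antagonist of the inhibitor of apoptosis proteins, had 35.9, 19.7 and 25.6 RPKM in ASA replicates 1, 2 and 3, against 52.5, 38.4 and 44.5 RPKM in DMSO replicates 1, 2 and 3. The groups did not overlap, though ASA replicate 1 was close to DMSO replicate 2. Diablo had a log2 fold change of -0.77 ± 0.26 (adjusted p = 0.0978), and -0.99 without ASA replicate 1 (adjusted p = 0.0388). The inhibitors themselves, Xiap, Birc2 and Birc3, had log2 fold changes of -0.32, 0.33 and -0.06 with overlapping groups (adjusted p = 0.536, 0.339 and 0.951).

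**Figure D3:**
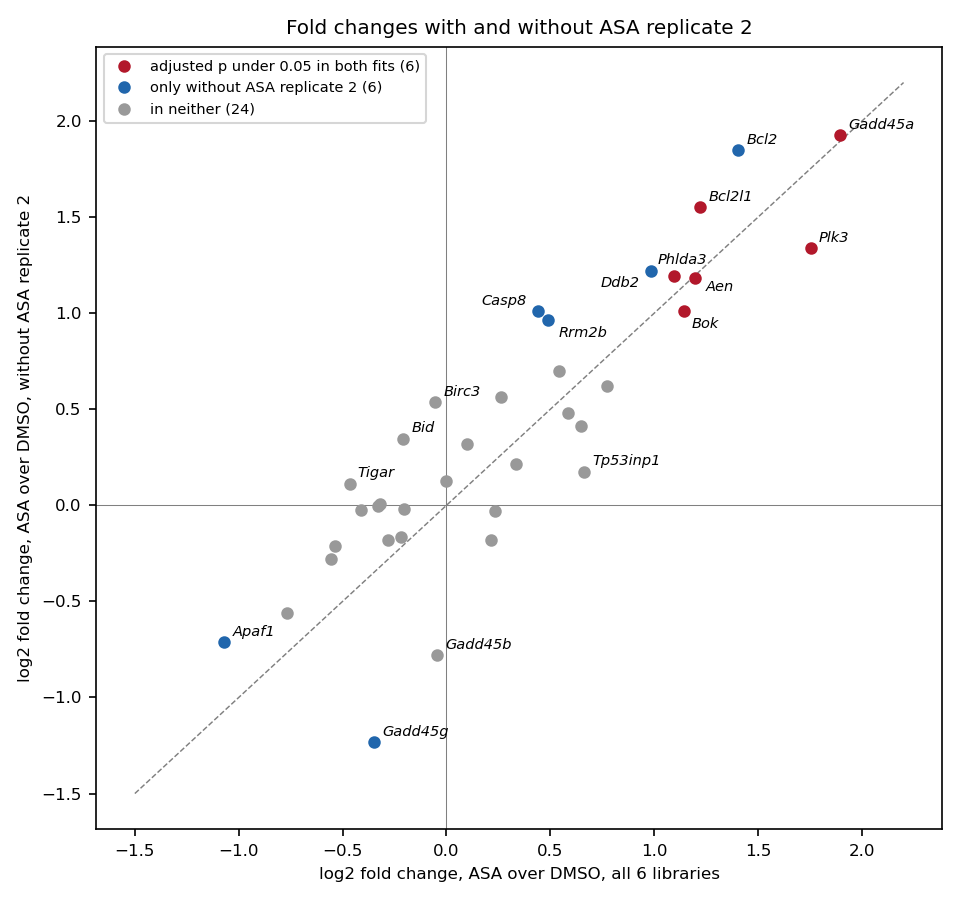
Log2 fold change of ASA over DMSO for the 36 genes with all 6 libraries (horizontal) and without ASA replicate 2 (vertical), with equality as a dashed line. Red points passed the threshold in both fits (6), blue points only without that library (6) and grey points in neither (24). Gadd45g and Gadd45b move down and Bcl2, Bcl2l1, Casp8 and Rrm2b move up when it is left out.

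Exons of a gene mostly moved together. In 26 of the 35 genes with 2 or more listed exons, every exon had the same direction on average. The same share over all genes was not counted. Of the 220 exons, 58 had all ASA libraries above all DMSO libraries, where 17.3% of all exons in the table did, and 32 had them below, where 16.6% did. Single genes weigh heavily in these counts: 15 of the 58 belong to Plk3 and 25 of the 32 to Apaf1. ASA replicate 2 was the exception within genes. Over the 29 genes with 3 or more exons, the median standard deviation between exons of the difference from the DMSO mean was 0.61 (log2) in ASA replicate 2, 0.15 in ASA replicate 1 and 0.11 in ASA replicate 3. It was largest in ASA replicate 2 in 28 of the 29. In limma's exon-level test of unequal exon use (diffSplice, adjusted over 116384 exons), 0 of 219 exons of 35 genes passed and 0 had an unadjusted p under 0.05, where 0.0447% of all exons passed and 1.73% had such an unadjusted p. Without ASA replicate 2 none passed either (0.229% of all exons), with 6 at an unadjusted p under 0.05 (2.1% of all exons). The spread in ASA replicate 2 limits what this test can detect.

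**Figure D4:**
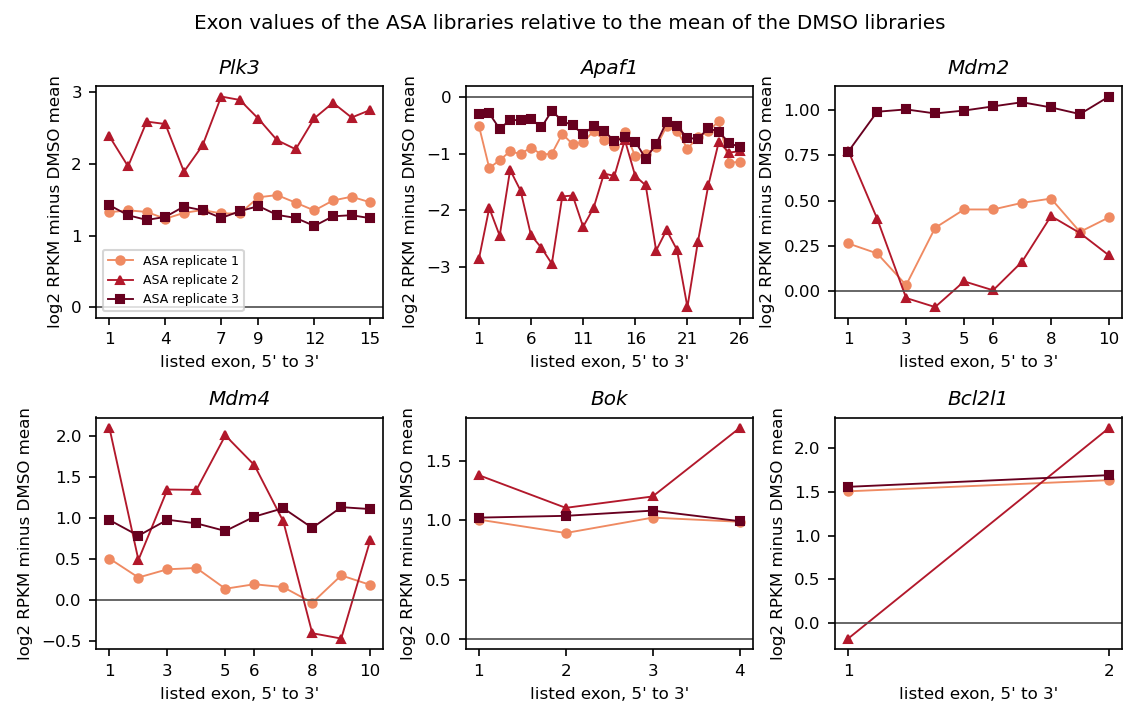
Exon values of 6 genes in the 3 ASA libraries, as log2 RPKM minus the mean of the DMSO libraries, against the listed exon in 5' to 3' order. ASA replicates 1 and 3 (circles, squares) vary less between exons than ASA replicate 2 (triangles), which runs from -0.18 to 2.23 in Bcl2l1. In Plk3 and Bok all points lie above 0, and in Apaf1 all lie below.

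In level, these genes ranged from weak to abundant. Gadd45g, Ccng1, Gadd45a, Btg1, Tp53inp1, Mdm2 and Bak1 averaged over 100 RPKM in the DMSO libraries. Ddb2, Bmf, Birc3 and Bcl2 averaged under 10 RPKM there, where 24 of the 36 were above the median of all tested genes. In the DMSO libraries the survival genes Bcl2l2 (43.4 ± 9.63 RPKM) and Bcl2l1 (28.5 ± 0.721 RPKM) exceeded Bcl2 (6.86 to 10.2 RPKM) in each library (mean ± SD, n = 3). In the ASA libraries Bcl2l1 came first with 69.8 ± 23.9 RPKM, before Bcl2l2 (36.8 ± 3.25 RPKM) and Bcl2 (25.7 ± 11.3 RPKM). Bcl2l1 exceeded Bcl2l2 in each ASA library, and the means of Bcl2l2 and Bcl2 differed there by less than the SD of Bcl2. In Rnor_6.0 the listed exons span chr4:97783080-97784664 for Gadd45a, chr9:100830250-100839874 for Bok and chr3:148261087-148312173 for Bcl2l1.

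Of 20 genes in a list of the kinases, ligases and partners of the p53 network, 0 passed the limma threshold. Of all genes, 6.21% were called higher and 4.99% lower. A negative fold change was found in 19 of the 20, and in 6691 of all 12502 genes tested. The median log2 fold change of the list was -0.36 (-0.06 over all genes), and -0.22 without ASA replicate 2 (0.06 over all genes). The nearest to the threshold, named after its values were seen, was Chek2, the checkpoint kinase that phosphorylates p53, with a log2 fold change of -1.20 ± 0.32 (adjusted p = 0.0517). It was called lower without ASA replicate 2 (adjusted p = 0.0459) and without DMSO replicate 2 (adjusted p = 0.0431). The list had 1 lower call without ASA replicate 2 (5%, against 8.07% of all genes). It had 2 without DMSO replicate 2 (against 2.55% of all genes), where Mtbp was the other (adjusted p = 0.0268). In both genes the library left out was the control nearest to the ASA libraries. Mtbp had 17.0, 4.39 and 13.4 RPKM in DMSO replicates 1, 2 and 3, against 3.70 to 4.07 RPKM in ASA. Chek2 had 12.3, 6.70 and 12.5 RPKM in DMSO replicates 1, 2 and 3, against 3.95 to 4.73 RPKM in ASA.

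Of 29 further p53 targets, 6 rose (20.7%, against 6.21% of all genes) and 1 fell (3.45%, against 4.99%), with a median log2 fold change of -0.00. This list too was chosen with earlier results of these data known. Without ASA replicate 2, 8 were called higher (27.6%, against 12.9% of all genes) and 4 lower (13.8%, against 8.07%). Without DMSO replicate 2, 1 was called higher (against 2.5% of all genes) and 0 lower (against 2.55%). Cdkn1a, which encodes the kinase inhibitor p21, had 113, 202 and 229.7 RPKM in ASA replicates 1, 2 and 3, against 90.4, 56.1 and 71.2 RPKM in DMSO replicates 1, 2 and 3. ASA replicate 1 was close to the highest control, and the increase was 2.44-fold (adjusted p = 0.0402). The death receptor gene Eda2r rose 5.12-fold, the metalloreductase gene Steap3 2.60-fold, and Tp53i13 2.25-fold (adjusted p = 0.0295, 0.0209 and 0.0343). Tp53inp2, an autophagy regulator named here because it was the only one that fell, was 2.06-fold lower (adjusted p = 0.0349).

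Of 21 further genes of the BCL2 family and its partners, 2 rose (9.52%) and 1 fell (4.76%), shares near those of all genes (median log2 fold change -0.01). Without ASA replicate 2, 3 were called higher (14.3%, against 12.9% of all genes) and 4 lower (19%, against 8.07%). Tmbim1 and Ghitm, of the BAX inhibitor family, rose 2.35-fold and 2.04-fold, and Bag1, a co-chaperone that binds BCL2, fell 2.46-fold (adjusted p = 0.0156, 0.0257 and 0.0158). Of 26 further caspases, inhibitors and death receptor genes, 2 rose and 2 fell (7.69% each), again near the shares of all genes (median -0.37). The same numbers were called without ASA replicate 2 (median -0.02), where 12.9% of all genes were called higher and 8.07% lower. The inflammatory caspase gene Casp4 had 113, 131 and 176 RPKM in ASA replicates 1, 2 and 3, against 9.38, 31.9 and 12.4 RPKM in DMSO replicates 1, 2 and 3. It was 8.82-fold higher (adjusted p = 0.014), and Casp12, a caspase of the endoplasmic reticulum in rodents, 2.37-fold higher (adjusted p = 0.0473). The mitotic survival gene Birc5 was 3.21-fold lower (adjusted p = 0.0453), with DMSO replicate 2 (34.2 RPKM) nearer to the ASA libraries (18.5 to 25.8 RPKM) than to DMSO replicates 1 and 3 (112 and 88.5 RPKM).

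Markers of other cell types were set beside these results. Of all genes tested, 6.21% were called higher and 4.99% lower, and without ASA replicate 2 these shares were 12.9% and 8.07%. Of 13 lactotroph and neuroendocrine markers 11 had rows, with Prl and Pou1f1 present in every library and Gh1 and Tshb without a row. Their sum was 22080 to 65750 RPKM in ASA and 28110 to 68270 RPKM in DMSO libraries, and 2 of the 11, Esr1 and Pcsk2, fell (median log2 fold change -0.33), with 2 called higher and 3 lower without ASA replicate 2. Of 12 myeloid markers 5 had rows, with a summed level of 83.4 to 268 RPKM in ASA and 39.7 to 56.3 RPKM in DMSO libraries. Cd68 and Itgax rose, while Cd14, Cd74 and Fcer1g did not pass, and 2 of the 5 had a negative fold change (lowest log2 -1.41). Ptprc, Csf1r, Itgam, Aif1, Adgre1, Lyz2 and Tyrobp carried no row. Of 10 fibroblast and pericyte markers 5 had rows, with sums of 3624 to 6539 RPKM in ASA and 3078 to 3836 RPKM in DMSO libraries, of which Dcn and Pdgfrb rose and Rgs5 fell. Of 8 gonadotroph and corticotroph markers 4 had rows, with sums of 4.35 to 9.69 RPKM in ASA and 27.3 to 32.3 RPKM in DMSO libraries. Among these Cga fell, and Fshb, Lhb and Gnrhr carried no row. The sums of the 2 folliculostellate markers with rows, of 8 listed, were 458 to 695 RPKM in ASA and 1116 to 2062 RPKM in DMSO libraries. These 2 went opposite ways. Anxa1 fell (log2 fold change -1.67), while Cryab had 2.09 without passing, with all ASA libraries above all DMSO libraries. None of 8 endothelial markers had a row. The part of these marker levels in the differences above was not tested.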

How the data were processed

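Libraries came from a stranded polyA kit, per the labels' protocols. Tools in the submitters' processing notes, with no roles stated, are edgeR 3.26.8, Bowtie2, TopHat2 2.1.0, cutadapt 1.14 and Trim Galore 0.4.1, with the build Rnor_6.0. Whether counting used strand is not given in the sources used, so antisense reads cannot be told apart. The authors deposited log2 RPKM per exon (118147 exons). The log was undone, a constant of 0.00292 reads per 1000000 removed and exons summed by gene identifier. Between 95.7% and 96.8% of values per library were then whole reads (within 0.02 read). In every listed exon at least 4 libraries had over 10 reads.

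The test was limma 3.58.1 in R 4.3.3 (lmFit, eBayes with trend, two-sided) on log2(RPKM + 0.1) for the 12502 genes whose mean reached 0.5 RPKM, Benjamini-Hochberg adjusted. The added 0.1 understates changes of low genes. Exon use was tested with diffSplice. Both were run on simulated data with equal spread in both groups. These libraries differ from that, so the simulation is no check on the effect of ASA replicate 2. The members and gene lists were chosen with earlier results of these data known. Full values are given for members that passed, those with an absolute log2 fold change of at least 0.8 and the most abundant of each role. Other lists give at most 4 genes past the threshold, by smallest p, beside Cdkn1a. Some genes of these lists enter the counts but are not reported here by name. Replicate numbers follow the deposited order.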

Additional observations from a re-analysis of the deposited data

How the results depend on the processing

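No paired analysis was possible because the labels give no replicate numbers. Pseudocounts of 0.01 and 1, no filter, a mean of at least 2 RPKM, TMM and median-ratio scaling, no trend, voom on recovered reads and the median exon left 5 to 7 of the 36 genes higher (4.15% to 6.76% of all genes). They left 0 lower, except 1 with median-ratio scaling. Genes of the other lists called higher numbered 6 with the median exon, against 10. No alternative reversed the direction of the 13 genes that the naming rule selected for full values. Gadd45g, described beside them, had a log2 fold change of -0.35 with all libraries, 0.10 without ASA replicate 1 and 0.08 without ASA replicate 3.

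With each library left out in turn, 0 to 1608 genes were higher and 0 to 1034 lower, of the 36 members 0 to 10 and 0 to 2, and of the 96 genes of the other lists 0 to 13 and 0 to 11. Leaving out both libraries numbered 2, added after seeing the data, gave 1734 higher and 1419 lower genes, 9 and 1 members, and 16 lower among the other lists. Exons of the 36 members called for unequal use numbered 0 in every fit. The cause was not tested.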
